A study of Homo sapiens with 17 samples.

Results

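The genes described here encode the proteins of the small nuclear ribonucleoprotein particles (snRNPs) of the spliceosome and their close partners. They were chosen by a rule on names that uses no measured value, though earlier results of these data were known by then. It takes every protein-coding gene whose symbol starts with SNRP, SNRNP, SF3A, SF3B, PRPF or LSM. The rule found 52 of the 14538 genes in the deposited tables, of which 12824 are protein-coding. LSM10 and LSM11, which belong to the U7 particle of histone RNA processing, are left out by the rule. The names also take in LSM1, which acts in cytoplasmic mRNA decay, LSM12, and LSM14A and LSM14B, which belong to cytoplasmic RNA granules. LSMEM1, a gene for a membrane protein, shares the letters of its symbol only and is no spliceosome gene.

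All samples are HEK293T, a human embryonic kidney cell line. In the INTS1-AID line INTS1 is homozygous for a miniAID tag, a degron through which auxin sends the tagged protein to degradation; the labels do not say whether the line is a single clone. Total RNA depleted of ribosomal RNA came from INTS1-AID cells with 500 µM auxin for 4 h (3 libraries) or without it (2), from the same line with 500 µM auxin for 12 h (3) or without it (3), and from untreated INTS1-AID (3) and untreated parental (3) cells. No library of parental cells with auxin was analysed here, so auxin itself and the loss of INTS1 cannot be told apart. New RNA after 4 h of INTS1 or INTS8 loss, measured by transient transcriptome sequencing (TT-seq) in libraries that are not among these samples, entered through the authors' deposited table alone.

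INTS1 is a scaffold subunit of Integrator, the complex that cuts nascent transcripts of RNA polymerase II at the snRNA genes and so forms the 3′ ends of U1, U2, U4, U5, U11 and U12. The spliceosome removes introns through an ordered exchange of snRNPs: U1 marks the 5′ splice site, U2 the branch point, and the tri-snRNP of U4/U6 and U5 then joins and is remodelled for catalysis. The polymerase II snRNAs carry a ring of Sm proteins, U6 carries a ring of LSm proteins, and each particle adds proteins of its own. The genes measured here are thus the protein side of particles whose RNA side depends on Integrator.

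The untreated libraries held from 26952038 to 39321998 reads in genes in INTS1-AID cells and from 26294938 to 35413737 in parental cells. Parental library 3 stood apart: across genes, its deviation from its group mean rose with GC content (Spearman's rho = 0.73), against -0.55 and -0.69 in parental libraries 1 and 2. INTS1 itself had 4143, 4003 and 3720 normalized counts in INTS1-AID libraries, against 5186, 4019 and 7384 in parental libraries (limma, adjusted p = 0.298). Auxin acts on the tagged protein, which RNA does not measure. Summed counts of 8 of 8 HEK293 markers were 5073 to 5293 in INTS1-AID and 4706 to 5181 in parental libraries. Single markers went opposite ways: EYA1 had 163 to 190 in INTS1-AID and 475 to 624 in parental libraries, PAX2 13 to 26 in INTS1-AID and 32 to 68 in parental libraries, and NEFL 1974 to 2005 in INTS1-AID and 1422 to 1586 in parental libraries (normalized counts). Of 4 blood and 4 fibroblast markers 0 and 0 were in the table, and of 4 colon markers 2: CDX2 had 934 to 1011 in INTS1-AID and 884 to 1125 in parental libraries, and LGR5 107 to 109 in INTS1-AID and 105 to 144 in parental libraries. The part of these differences in the results was not tested. The auxin series were deposited as comparisons, so their depth is unknown and no value per library is given for them.

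The Sm core, the ring on the polymerase II snRNAs, had the highest median level per kb of transcript. Over all 52 genes, the median level was 1824 normalized counts per kb of transcript in untreated INTS1-AID and 1678 in parental cells. For the 7 Sm core genes it was 6616 in INTS1-AID and 5733 in parental cells. SNRPB, which encodes the Sm proteins B and B′, led with 20005 ± 641 in INTS1-AID and 18835 ± 1154 in parental cells (normalized counts per kb, mean ± SD, n = 3 each).

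SNRPD3 followed at 10819 ± 312 in INTS1-AID and 9773 ± 937 in parental cells, and SNRPG, which ended the order, stood at 2198 ± 117 in INTS1-AID and 1667 ± 727 in parental cells (normalized counts per kb). The ring holds 1 copy of each Sm protein. The highest transcript level per kb was 9.1 times the lowest in INTS1-AID and 11.3 times in parental cells. These levels depend on the deposited transcript length, which is 1407 bases for SNRPG and 452 for SNRPF. Before division by length, SNRPG and SNRPF had mean normalized counts of 3092 and 3382 in INTS1-AID cells. The part of the length in this spread was not tested. Reads of 13 members are uncertain, since GENCODE v29 lists pseudogenes under their names, 20 for SNRPG, 18 for SNRPC, 9 for SNRPE and from 1 to 4 for each other.

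In the LSm ring of U6, the levels ran from 280 ± 22.9 for LSM8 to 5996 ± 149 for LSM4 in INTS1-AID cells, and from 278 ± 9.85 to 6167 ± 655 in parental cells (normalized counts per kb). LSM8 is the subunit that distinguishes the nuclear ring from the cytoplasmic one, where LSM1 takes its place. LSM1 had 1242 ± 24.6 in INTS1-AID and 1126 ± 132 in parental cells, above LSM8 in both lines on this scale. Mean counts not divided by length were 1238 for LSM8 and 1155 for LSM1 in total RNA of the 4 h series. In the 12 h series these were 650 and 907 in the authors' deposited table. The gap per kb thus depends on the transcript length used. Among the U1 genes SNRNP70, which clasps the first stem-loop of U1, had 5684 ± 49 in INTS1-AID and 5684 ± 914 in parental cells. PRPF40B, a U1-associated protein, had 52.8 ± 5.74 in INTS1-AID and 61.8 ± 13.3 in parental cells. PRPF40B and LSMEM1 were the members under 100 normalized counts per kb, in both lines.

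The other groups lay in between. The median of the U2 genes was 2672 normalized counts per kb in INTS1-AID and 2558 in parental cells, with SF3B6, the branch-point protein p14, highest at 6011 ± 440 in INTS1-AID and 4763 ± 1178 in parental cells and SF3A2 lowest at 669 ± 38.2 in INTS1-AID and 784 ± 143 in parental cells. The median of the U4/U6 and U5 genes was 1640 in INTS1-AID and 1766 in parental cells. SNRNP40, a WD-repeat protein of U5, was the highest of them, at 3872 ± 39.5 in INTS1-AID and 3872 ± 96.1 in parental cells. In the minor spliceosome, which removes rare introns with U11 and U12 in place of U1 and U2, SNRNP25 had 2295 ± 84.1 in INTS1-AID and 2318 ± 246 in parental cells, SNRNP48 894 ± 17.7 in INTS1-AID and 880 ± 120 in parental cells and SNRNP35 305 ± 18.3 in INTS1-AID and 286 ± 28.9 in parental cells. The 4 cytoplasmic LSm genes had the lowest median of the groups of more than 1 gene, 512 in INTS1-AID and 552 in parental cells.

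**Figure D1:**
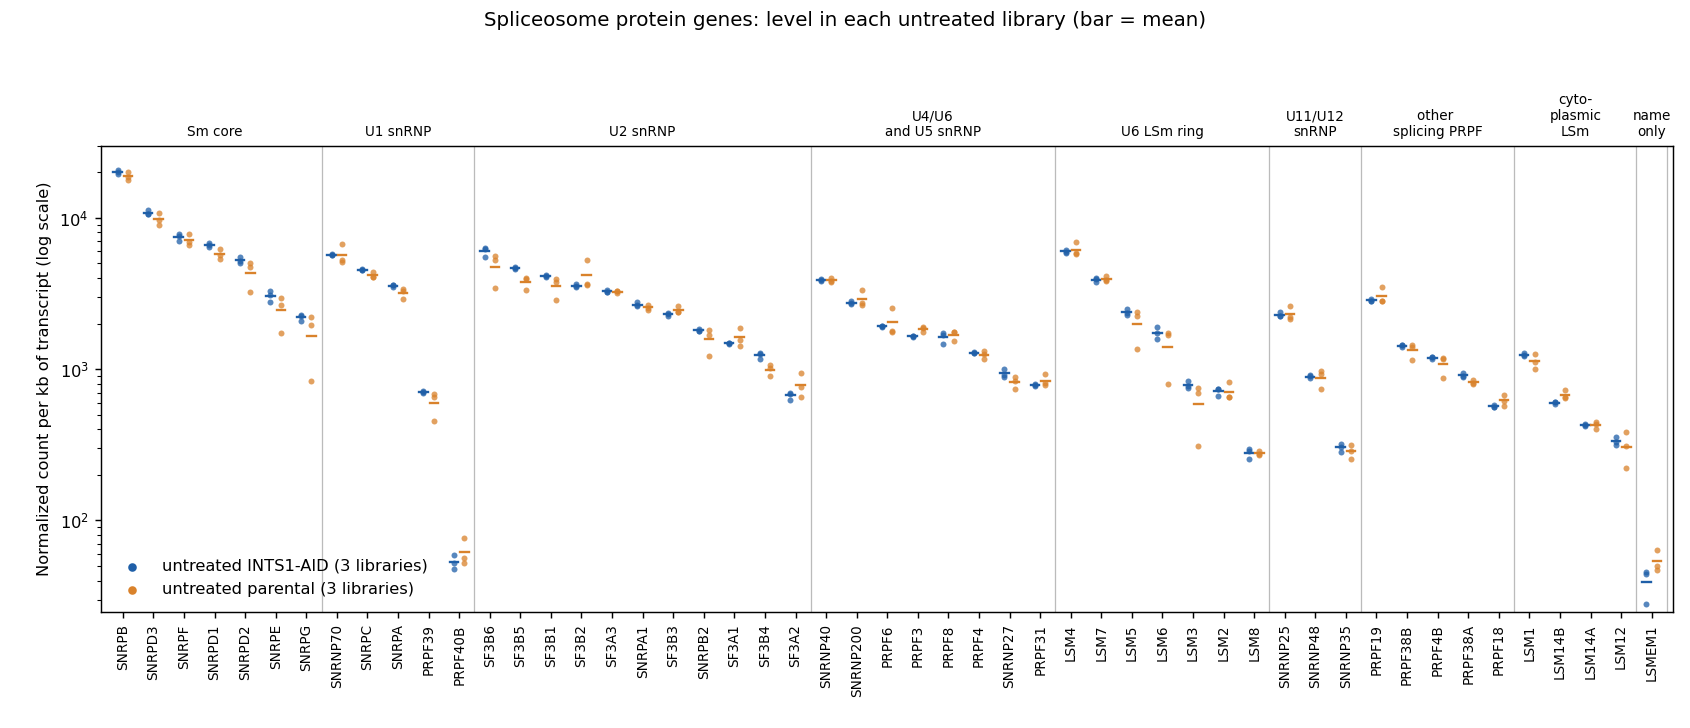
Normalized count per kb of transcript (log axis) of 51 of the 52 genes in each untreated library, INTS1-AID left of parental; points are libraries and bars are group means. SNRPB is highest at 20005 and 18835 per kb in the lines, and LSMEM1 lowest at 39.4 and 53.7.

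One word stood in more of these promoters than of others. RefSeq windows of GRCh38.p14, from 250 bases before the start to 50 after it, were found for 42 of the 52. CCGGAAG, a core of sites of ETS-family factors, was found on either strand in 19 of these 42 (45.2%), against 1976 of 10276 promoters of protein-coding genes in the tables, members included (19.2%). The GC box GGGCGG was found in 61.9% of the members' windows against 72.4%, CCAAT in 45.2% against 37.0%, and the YY1 word AAGATGGCG in 9.52% against 4.00%. TATAAA was in 2.38% against 5.37%, and an NRF1 word in 2.38% against 2.32%. Both strands were searched for each word, and hits of different words may overlap. A match is a run of letters, not a shown site, and the shares were not tested.

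The 100 bases before the RefSeq start are printed for 6 members whose window no GENCODE v29 exon overlaps. For SNRPG, on the minus strand, the deposited gene starts at 70293740, so its window lies within the gene as annotated there. SNRPG, the U5 helicase SNRNP200 and the U5 protein PRPF6 show the ETS word; SNRNP40, SNRNP48 and SF3B5 lack it and changed with auxin at 12 h. PRPF38B, whose window is also free of annotated exons, is not printed. It lacks the word too, and its log2 change of -0.099 at 12 h was not called. PRPF6, with the word, fell at 4 h. The printed windows are thus examples, and a link between word and change was not tested. Each printed sequence reads 5′ to 3′ on the strand of the gene, and capitals mark the searched words.
SNRPG, chr2:70293459-70293558, minus strand: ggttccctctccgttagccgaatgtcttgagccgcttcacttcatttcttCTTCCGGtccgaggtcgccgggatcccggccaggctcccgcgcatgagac
SNRNP200, chr2:96305547-96305646, minus strand: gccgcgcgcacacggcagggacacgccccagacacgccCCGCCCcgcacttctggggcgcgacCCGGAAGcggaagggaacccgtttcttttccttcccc
PRPF6, chr20:63981032-63981131, plus strand: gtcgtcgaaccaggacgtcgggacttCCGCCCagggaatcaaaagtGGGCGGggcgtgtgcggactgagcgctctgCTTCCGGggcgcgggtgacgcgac
SNRNP40, chr1:31296789-31296888, minus strand: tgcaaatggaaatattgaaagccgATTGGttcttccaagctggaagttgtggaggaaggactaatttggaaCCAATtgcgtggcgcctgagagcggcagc
SNRNP48, chr6:7590098-7590197, plus strand: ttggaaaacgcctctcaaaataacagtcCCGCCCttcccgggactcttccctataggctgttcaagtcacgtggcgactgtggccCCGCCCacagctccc
SF3B5, chr6:144095574-144095673, minus strand: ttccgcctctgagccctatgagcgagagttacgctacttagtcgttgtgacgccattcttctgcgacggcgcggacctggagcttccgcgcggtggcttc
SNRPG and PRPF6 hold the ETS word as CTTCCGG and SNRNP200 as CCGGAAG. SNRNP40 holds CCAAT on both strands, SNRNP48 holds the GC box as CCGCCC, and in SF3B5 none of the words falls in these 100 bases.

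The first comparison asks whether the degron line differs from its parent before auxin is added. Of the 52 members 0 were higher and 0 lower by limma at a false discovery rate of 0.05, where 2.22% of 13293 genes were called, 1.85% higher and 0.369% lower. At an unadjusted p under 0.05 there were 5 by limma, and the share of all genes at that threshold was not counted. Of the members edgeR called 0, and DESeq2 called 2, SF3B4 and SF3B5. Over the whole table DESeq2 also called more genes than limma, with the counts given under the dependence on processing. For 35 of the 52 (67.3%) the 95% interval of the log2 difference lay within 0.5 of 0. The share was 76.8% among protein-coding genes with a mean of at least 1000. No label says that replicates were grown apart, so a p-value here reflects how libraries vary, which may be technical. In these bulk samples fewer cells of a type and less RNA per cell cannot be told apart.

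The members' median log2 difference was 0.069, with 34 above 0 and 18 below. Over all genes tested it was 0.0049, with 6772 of 13293 above 0. Genes with a mean of 1000 or more had a median of 0.035, with 3899 of 6659 above 0. Highly expressed genes thus shared the direction of this shift. Without parental library 3 the members' median was 0.039, with 36 above 0. All 7 Sm core genes lay above 0, from 0.076 for SNRPF to 0.52 for SNRPG. SNRPG had 2906, 3216 and 3156 normalized counts in INTS1-AID libraries, against 2765, 3093 and 1180 in parental libraries (log2 difference 0.52 ± 0.32 SE, 95% interval -0.23 to 1.26, limma adjusted p = 0.419). The groups overlapped, and the low value was that of parental library 3, the one with the GC trend. LSM3, a subunit of both LSm rings, had 2503, 2794 and 2606 normalized counts in INTS1-AID libraries, against 2347, 2522 and 1047 in parental libraries (log2 difference 0.52 ± 0.30 SE, 95% interval -0.18 to 1.21, limma adjusted p = 0.393). Its low value came from the same library. Without that library the differences were 0.079 for SNRPG and 0.11 for LSM3. With all libraries the differences ran from -0.21 for PRPF40B to 0.26 for PRPF39 among U1 genes, from -0.21 for SF3A2 to 0.37 for SF3B6 among U2 genes and from -0.16 for PRPF3 to 0.19 for SNRNP27 among U4/U6 and U5 genes. They ran from -0.036 for LSM4 to 0.52 for LSM3 in the U6 ring, from -0.0095 for SNRNP25 to 0.10 for SNRNP35 in U11/U12, from -0.13 for PRPF18 to 0.16 for PRPF38A among other PRPF genes and from -0.18 for LSM14B to 0.16 for LSM12 among cytoplasmic LSm genes. Most of these ends rested on parental library 3: of the 16 ends of the 8 role groups, 12 moved by over 1.5 times without it, 3 of them with a change of sign. Without it SF3B6 had 0.14, SF3A2 -0.077, PRPF39 0.075, PRPF40B -0.042 and SNRNP27 0.12, and LSM12, LSM4 and SNRNP25 changed sign, to -0.052, 0.05 and 0.075.

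SF3B4 and SF3B5, small subunits of the SF3b complex at the branch point, came nearest to a call. SF3B4 had 1964, 1930 and 1805 normalized counts in INTS1-AID libraries, against 1635, 1566 and 1398 in parental libraries (log2 difference 0.31 ± 0.088 SE, 95% interval 0.11 to 0.51, limma adjusted p = 0.135). SF3B5 had 3165, 3266 and 3238 normalized counts in INTS1-AID libraries, against 2771, 2698 and 2284 in parental libraries (log2 difference 0.32 ± 0.091 SE, 95% interval 0.11 to 0.53, limma adjusted p = 0.135). In both genes every INTS1-AID library was above every parental library. Groups that did not overlap were found in 14 of the 52 (26.9%), 10 of them higher in INTS1-AID. Over all genes tested the share was 30.7%, with 16% higher and 14.7% lower.

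Leaving out parental library 3 moved the calls to 8 of 52 members, while 2432 of 13293 genes passed against 295 with it. PRPF38A, PRPF6, SF3B4, SF3B5, SNRNP70, SNRPB and SNRPD1 were then higher in INTS1-AID, and PRPF3, a U4/U6 protein, was lower. PRPF6 changed sign, from -0.061 with all libraries to 0.11 without that one. Across members with a mean of at least 100, the difference ran against exon number (Spearman's rho = -0.55 over 51 genes) and GC content (-0.51). Over protein-coding genes these were -0.14 and -0.49. The genes share their libraries and base composition; the part of GC content in the differences was not tested.

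The next comparisons set auxin against no auxin in the degron line. At 4 h 3 of the 52 were higher and 15 lower (DESeq2 adjusted p under 0.05 in the authors' deposited table), where 19.2% of 14479 genes were higher and 19.2% lower, 38.4% in all. Among genes whose mean count was 1000 or more, 19.5% were higher and 30.2% lower by the authors' deposited table, 49.7% in all. Of the 43 members at that level 3 were higher and 12 lower, 34.9% in all. The share that fell thus lay near the background of highly expressed genes.

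The changes at 4 h were small. The members' median log2 change was -0.062 in the authors' deposited table, against 0.0048 over all genes and -0.042 over those with a mean of 1000 or more. No member reached 0.5 in size, where 7.05% of protein-coding genes with a mean of 1000 or more did in the authors' deposited table. For 49 of 52 members (94.2%) the 95% interval implied by the authors' deposited table lay within 0.5 of 0. The others were LSMEM1, PRPF40B and SF3A2. Of those protein-coding genes 87.8% also had the interval within 0.5 of 0, so small changes were common among highly expressed genes. The Sm core had 0 of 7 genes called, from -0.09 for SNRPD1 to 0.036 for SNRPG in the authors' deposited table. The U6 LSm ring also had 0 of 7 called, from -0.20 for LSM6 to 0.25 for LSM2 in the authors' deposited table.

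Of the 6 U1 genes 3 fell and 0 rose at 4 h by the authors' deposited table. PRPF39, known from yeast as a U1 protein, fell by 0.26 on the log2 scale (SE 0.058, adjusted p = 4.34e-05 in the authors' deposited table). SNRPA, which binds the second stem-loop of U1, fell by 0.18 (SE 0.057, adjusted p = 0.00495 in the authors' deposited table). The lowest value was that of PRPF40B, -0.36, which at a mean of 109 normalized counts was not called (adjusted p = 0.156 in the authors' deposited table), and the highest that of SNRPC, 0.092.

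Of the 11 U2 genes 4 fell and 1 rose at 4 h by the authors' deposited table. SF3A2, a subunit of SF3a, fell by 0.34 (SE 0.092, adjusted p = 0.00108), to 440 normalized counts per kb with auxin, against 556 without, in the authors' deposited table. SF3B3, a large scaffold subunit of SF3b, fell by 0.24 (SE 0.041, adjusted p = 5.79e-08), to 1197 normalized counts per kb with auxin, against 1414 without, in the authors' deposited table. SF3B2 and SF3A3 fell by 0.18 and 0.10 (adjusted p = 0.00149 and 0.0487 in the authors' deposited table). SF3B1, the branch-point subunit that splicing inhibitors bind, had a log2 change of -0.076 and was not called (adjusted p = 0.0601 in the authors' deposited table). SF3B5 was the one that rose, by 0.18 (SE 0.061, adjusted p = 0.0119), with 3300 normalized counts per kb with auxin, against 2918 without, in the authors' deposited table.

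Of the 8 U4/U6 and U5 genes 4 fell and 1 rose at 4 h by the authors' deposited table. PRPF6, which bridges U5 and U4/U6, fell by 0.30 (SE 0.058, adjusted p = 1.3e-06), to 1031 normalized counts per kb with auxin, against 1271 without, in the authors' deposited table. SNRNP40 fell by 0.27 (SE 0.047, adjusted p = 9.49e-08), to 2109 normalized counts per kb with auxin, against 2545 without, in the authors' deposited table. SNRNP27 and PRPF31 fell by 0.20 and 0.19 (adjusted p = 0.0227 and 0.0131 in the authors' deposited table). PRPF4, a U4/U6 protein, rose by 0.17 (SE 0.053, adjusted p = 0.00544), with 940 normalized counts per kb with auxin, against 838 without, in the authors' deposited table. The largest U5 proteins were not called: the log2 change was 0.034 for PRPF8, which lines the catalytic core, and -0.061 for SNRNP200 in the authors' deposited table.

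Outside these particles 3 of 4 cytoplasmic LSm genes fell at 4 h by the authors' deposited table: LSM14A by 0.29 (SE 0.088, adjusted p = 0.00401), LSM14B by 0.27 (SE 0.074, adjusted p = 0.00119) and LSM12 by 0.27 (SE 0.093, adjusted p = 0.0132). LSM1, the highest of them, stood at 0.066 in the authors' deposited table. PRPF4B, a kinase of the tri-snRNP, fell by 0.12 (adjusted p = 0.0182 in the authors' deposited table), and the other PRPF genes reached up to 0.067 for PRPF38B. In the minor spliceosome SNRNP25, a U11 protein, rose by 0.33 (SE 0.062, adjusted p = 6.51e-07), with 1783 normalized counts per kb with auxin, against 1414 without, in the authors' deposited table. It was the largest called rise among the members; SNRNP35 and SNRNP48 were not called, at 0.051 and -0.054 in the authors' deposited table.

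**Figure D2:**
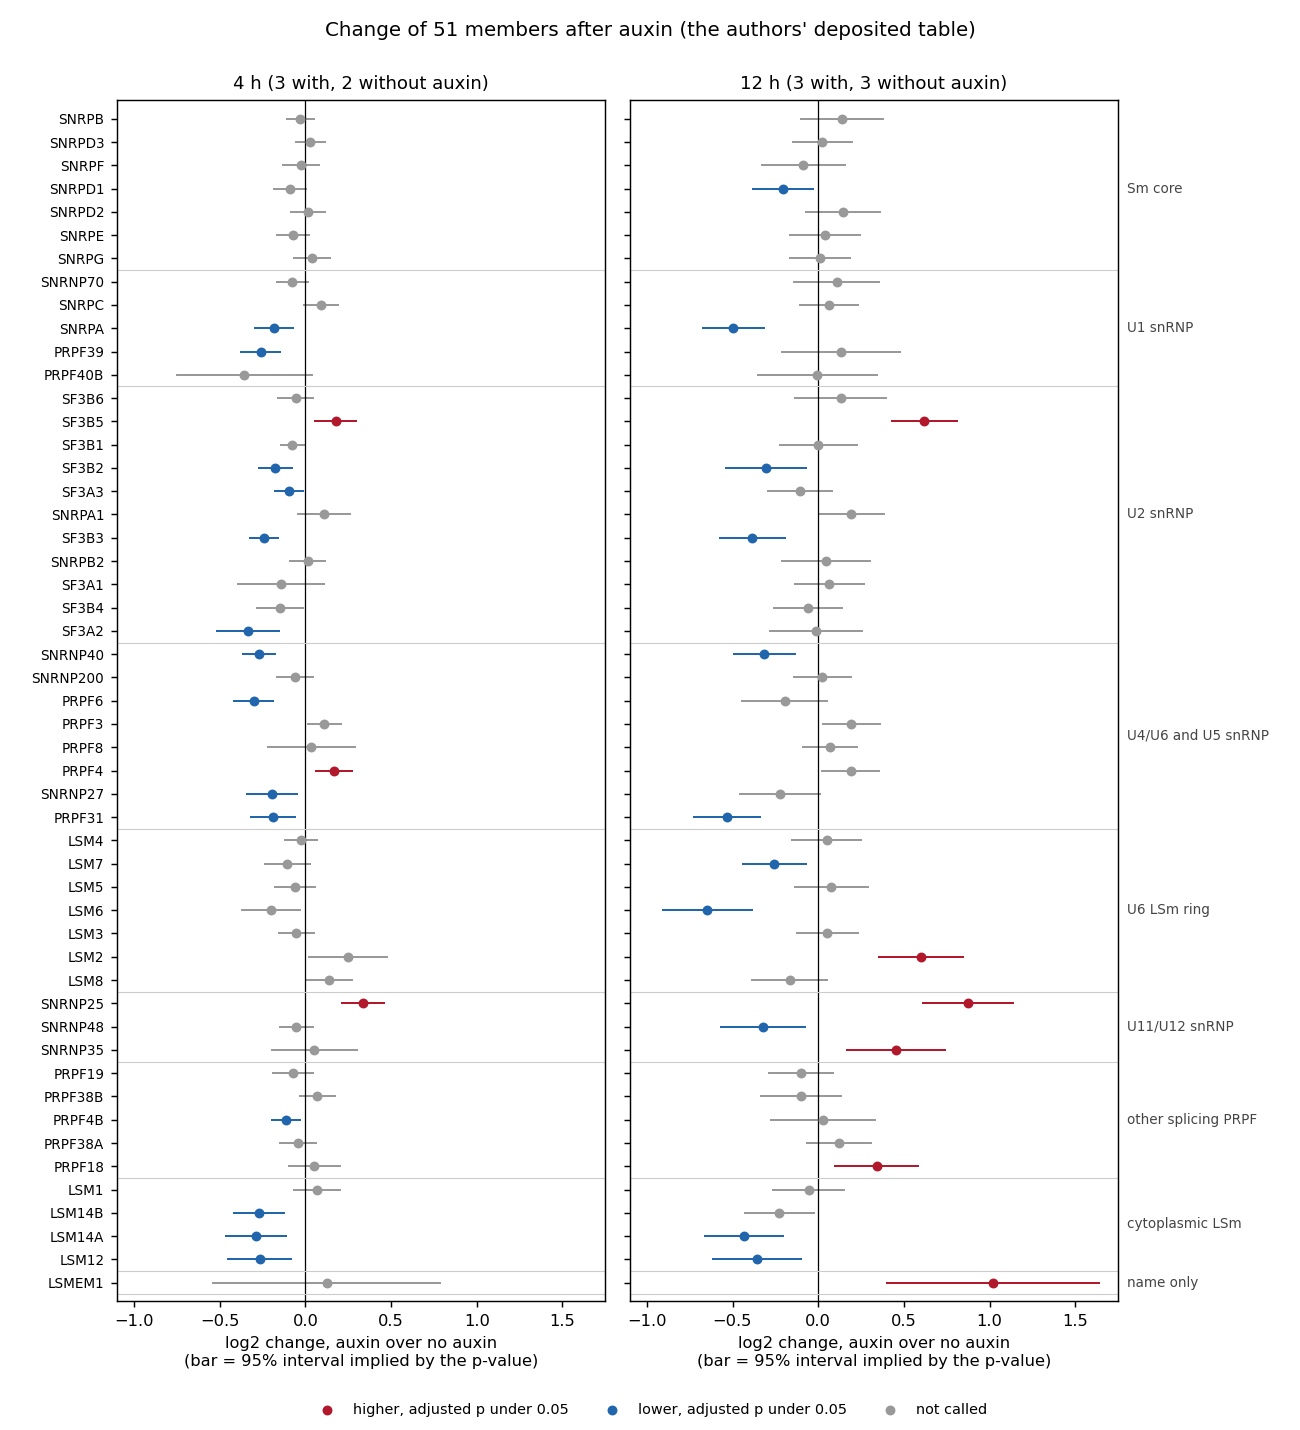
Log2 change of 51 of the 52 members, auxin over no auxin, at 4 h (left) and 12 h (right) in the authors' deposited table, with 95% intervals implied by its p-values; red is higher, blue lower and grey not called. No point reaches 0.5 in size at 4 h, while at 12 h SNRNP25, SF3B5, LSM2 and LSMEM1 lie above 0.5 and LSM6 and PRPF31 below -0.5.

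At 12 h the called members went in both directions. The direction at 12 h, auxin over no auxin, was inferred from the correlation with 4 h across genes, since the deposited expression column does not settle it. Of the 52, 6 were higher and 11 lower (DESeq2 adjusted p under 0.05 in the authors' deposited table), where 21.9% of 14485 genes were higher and 22.3% lower, 44.2% in all. Among genes whose mean count was 1000 or more these were 21.3%, 24.5% and 45.9% in the authors' deposited table. Of the 39 members at that level 2 were higher and 8 lower, 25.6% in all. The members' median log2 change was 0.018, against 0.011 over all genes in the authors' deposited table. A change of 0.5 or more in size was found in 6 of 52 members (11.5%), against 19.5% of protein-coding genes with a mean of 1000 or more in the authors' deposited table.

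All 3 U11/U12 genes passed the test at 12 h, in both directions. SNRNP25, at chr16:53828-57669 on the plus strand (hg38), rose by 0.88 or 1.83-fold (SE 0.13, adjusted p = 6.31e-10 in the authors' deposited table). SNRNP35, the U11 counterpart of SNRNP70, rose by 0.46 (SE 0.15, adjusted p = 0.00543 in the authors' deposited table). SNRNP48, which reads the 5′ splice site in U11, fell by 0.32 (SE 0.13, adjusted p = 0.0259 in the authors' deposited table).

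Among U2 genes 1 rose and 2 fell at 12 h by the authors' deposited table. SF3B5 rose by 0.62 or 1.53-fold (SE 0.10, adjusted p = 1.65e-09 in the authors' deposited table). It lies at chr6:144094884-144095573 on the minus strand (hg38), with 1 exon and a transcript of 690 bases, so this splicing gene has no intron of its own. Its SF3b partners SF3B3 and SF3B2 fell by 0.38 and 0.30 (adjusted p = 0.000382 and 0.0251 in the authors' deposited table). SF3B1 and SF3B4 had log2 changes of 0.0017 and -0.061 and were not called in the authors' deposited table. SF3A2, the largest fall of the group at 4 h, stood at -0.012 at 12 h (adjusted p = 0.959 in the authors' deposited table).

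The U6 LSm ring, with no call at 4 h, had 1 higher and 2 lower genes at 12 h in the authors' deposited table. LSM2 rose by 0.60 or 1.51-fold (SE 0.12, adjusted p = 9.34e-06 in the authors' deposited table). LSM6, at chr4:146175728-146189767 on the plus strand (hg38), fell by 0.65 on the log2 scale (SE 0.13, adjusted p = 6.59e-06), to 0.639 of the level without auxin, in the authors' deposited table. LSM7 fell by 0.26 (adjusted p = 0.0159 in the authors' deposited table). Subunits of the same ring were thus changed in opposite directions. In the Sm core SNRPD1 alone was called, with a fall of 0.20 (adjusted p = 0.0477 in the authors' deposited table), and the others lay between -0.086 for SNRPF and 0.15 for SNRPD2.

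Among U1 genes SNRPA fell by 0.49 (SE 0.092, adjusted p = 5.19e-07 in the authors' deposited table). PRPF39, which fell at 4 h, stood at 0.13 and was not called at 12 h in the authors' deposited table. In the tri-snRNP PRPF31, a U4/U6 protein mutated in a form of retinitis pigmentosa, fell by 0.53 (SE 0.10, adjusted p = 4.56e-07 in the authors' deposited table). SNRNP40 fell by 0.32 (SE 0.091, adjusted p = 0.00178 in the authors' deposited table). PRPF3 and PRPF4 were just short of a call at 0.19 and 0.19 (adjusted p = 0.0531 and 0.0539 in the authors' deposited table). PRPF18, a factor of the second catalytic step, rose by 0.34 (SE 0.12, adjusted p = 0.0157 in the authors' deposited table), and PRPF19, the ubiquitin ligase of the catalytic complex, was lowest of that group at -0.10.

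LSM14A and LSM12 fell by 0.43 (SE 0.12, adjusted p = 0.000821) and 0.35 (SE 0.13, adjusted p = 0.0181) at 12 h in the authors' deposited table. LSMEM1, the member by name only, had the highest value, 1.02, at a mean of 30 normalized counts (SE 0.32, adjusted p = 0.00404 in the authors' deposited table). Without it and the cytoplasmic genes, 5 of 47 splicing members were higher and 9 lower at 12 h by the authors' deposited table.

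Called at either time were 26 members, and at neither 26, in the authors' deposited table. SNRNP25 and SF3B5 were higher at both, which is 66.7% of the 3 higher at 4 h and 33.3% of the 6 higher at 12 h by the authors' deposited table. LSM12, LSM14A, PRPF31, SF3B2, SF3B3, SNRNP40 and SNRPA were lower at both, 46.7% of the 15 at 4 h and 63.6% of the 11 at 12 h in the authors' deposited table. 0 members were called in opposite directions. How many of all genes were called at either time, at both or in opposite directions was not counted. Of all genes 38.4% were called at 4 h and 44.2% at 12 h by the authors. The changes also correlated between the times across genes (r = 0.85). The overlap therefore cannot be read as special to the members. The times share no library.

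A Wald test of the difference between the times, built on the authors' deposited table and adjusted by Benjamini-Hochberg over 14460 genes, called 2 members as more positive at 12 h and 3 as more negative. The shares of all genes were 6.33% and 8.55%, 14.9% in all. The 12 h change exceeded the 4 h change by 0.54 for SNRNP25 (SE 0.15, adjusted p = 0.00372) and by 0.44 for SF3B5 (SE 0.11, adjusted p = 0.00201). The difference was -0.45 for LSM6 (SE 0.16, adjusted p = 0.0363), -0.34 for PRPF31 (SE 0.12, adjusted p = 0.0307) and -0.31 for SNRPA (SE 0.11, adjusted p = 0.0305). For PRPF39 and SF3A2, called at 4 h alone, the difference did not pass (adjusted p = 0.14 and 0.186). The labels name 2 library kits without saying which library had which, so a kit and a time cannot be told apart.

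New RNA gave fewer calls at 4 h. With INTS1 loss 2 of 52 members were higher and 4 lower (DESeq2 adjusted p under 0.05 in the authors' deposited table), where 13.3% of 13876 genes were higher and 10.7% lower, 24.1% in all. SNRNP25 rose by 0.41 (SE 0.16, adjusted p = 0.0409 in the authors' deposited table) and PRPF4 by 0.33 (SE 0.12, adjusted p = 0.0263). SF3B3 fell by 0.43 (SE 0.092, adjusted p = 3.86e-05 in the authors' deposited table), and SF3B2 by 0.34 (SE 0.13, adjusted p = 0.0376). LSM12 fell by 0.45 (SE 0.14, adjusted p = 0.00798 in the authors' deposited table). These 5 genes were called in the same direction in total RNA at 4 h. The last call was SF3A1, a subunit of SF3a, which fell by 0.41 in new RNA (SE 0.10, adjusted p = 0.000802 in the authors' deposited table), and stood at -0.14 in total RNA at 4 h (adjusted p = 0.419).

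SF3B5 rose in total RNA at 4 h, and its new RNA had a log2 change of -0.042 (SE 0.18, adjusted p = 0.902 in the authors' deposited table). SNRPA fell in total RNA, and its new RNA had 0.057 (SE 0.12, adjusted p = 0.79 in the authors' deposited table). PRPF39 had 0.20 in new RNA (SE 0.13, adjusted p = 0.305 in the authors' deposited table), against a fall of 0.26 in total RNA. The difference between new and total RNA was not tested. LSM2 and PRPF31 had mean counts of 16 and 48 in new RNA in the authors' deposited table, with SEs of 0.46 and 0.28, so their change was not detectable at this depth.

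For INTS8 loss the direction was likewise inferred from the correlation with INTS1 loss, and the deposited expression column read the other way. On that footing 0 members were higher and 1 lower in new RNA (DESeq2 adjusted p under 0.05 in the authors' deposited table), where 6.56% of 13592 genes were higher and 2.87% lower, 9.43% in all. The call was SF3A1 again, with a fall of 0.35 (SE 0.10, adjusted p = 0.00857 in the authors' deposited table). SNRNP25 had -0.016 with INTS8 loss (SE 0.19, adjusted p = 0.977 in the authors' deposited table), and its difference from INTS1 loss was not tested. Below 0 with INTS8 loss were 43 of 52 members, against 7019 of 13592 genes in the authors' deposited table. The members' median was -0.11, against -0.011 over all genes in the authors' deposited table. Among genes with a mean of 1000 or more it was -0.035, with 854 of 1458 below 0. The difference of the members from these genes was not tested. Across 46 members the change with INTS8 loss ran against GC content (Spearman's rho = -0.49, and -0.25 over 8475 protein-coding genes), a description over genes that share their libraries.

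**Figure D3:**
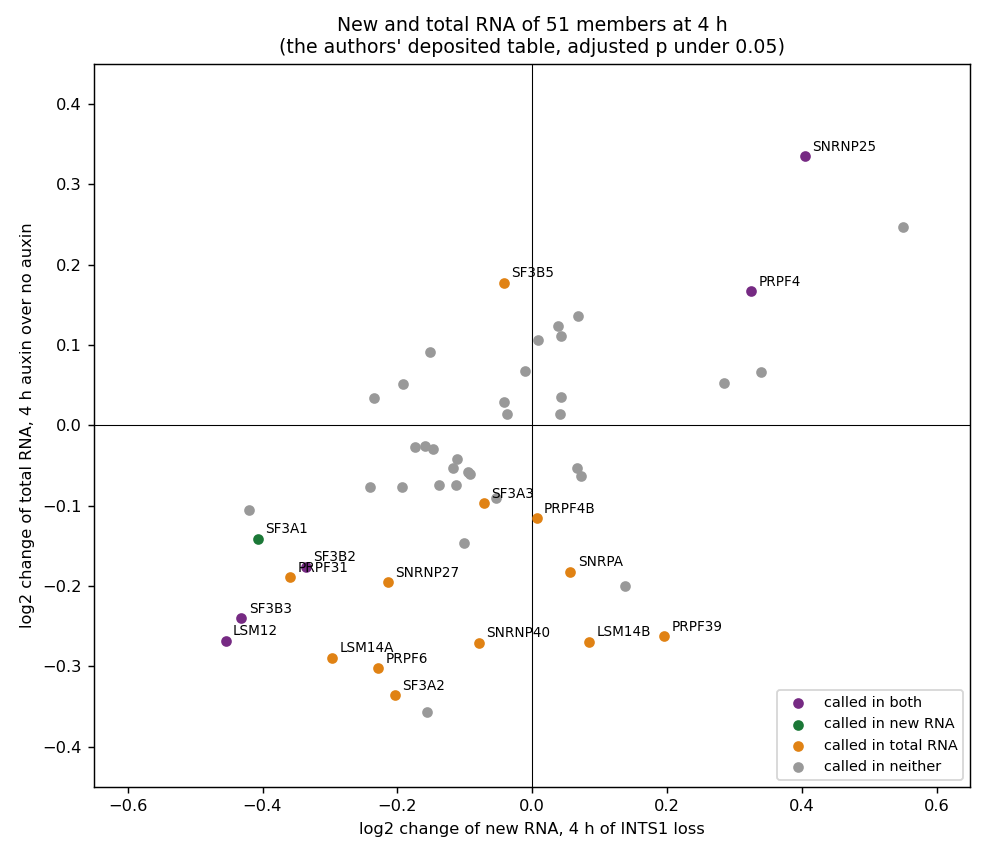
Log2 change of new RNA after 4 h of INTS1 loss and of total RNA at 4 h, auxin over no auxin, for 51 of the 52 members in the authors' deposited table; colours mark where a gene was called and labels name called genes. SNRNP25 and PRPF4 are called as higher in both and LSM12, SF3B3 and SF3B2 as lower in both, while SF3B5 is called in total RNA alone.

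Most of the members that fell at 4 h are long genes, as are most protein-coding genes that fell. Of lower protein-coding genes with a mean count of 100 or more, 1616 were over 30 kb in the authors' deposited table. Another 733 were between 10 and 30 kb and 341 under 10 kb. Where the mean count was 100 or more, 9 of 14 members over 30 kb were lower and 0 higher by the authors' deposited table. Of the 14 under 10 kb 0 were lower and 2 higher by the authors' deposited table. The shares of protein-coding genes that were lower were 31% over 30 kb and 14.5% under 10 kb in the authors' deposited table. Between these lengths 6 of 23 members were lower and 1 higher, where 23.6% of protein-coding genes were lower by the authors' deposited table. At 12 h 4 of the 14 long members (28.6%) were lower and 1 higher by the authors' deposited table, where 34.5% of long protein-coding genes were lower. Of the 14 short members 1 (7.14%) was lower and 4 (28.6%) higher, where 13.8% of short protein-coding genes were lower and 36.8% higher by the authors' deposited table. Of the 23 members in between 6 were lower and 0 higher, against 23.4% of such protein-coding genes lower by the authors' deposited table. Members were not tested against other genes of their length. As for the ETS word, at 4 h 5 of the 19 members with it were lower and 0 higher, and 5 of the 23 without it were lower and 3 higher by the authors' deposited table. At 12 h 1 of the members with the word was lower and 1 higher, and 6 of those without it were lower and 4 higher by the authors' deposited table. Of all genes 19.2% were lower and 19.2% higher after 4 h by the authors' deposited table, and 22.3% were lower and 21.9% higher after 12 h; the difference between members with and without the word was not tested.

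In GENCODE v29, 17 of the 52 members have a protein-coding neighbour on the other strand whose start lies within 1000 bases. Some of these neighbours moved apart. SNRNP40 fell at both times, and ZCCHC17 beside it rose by 0.52 at 4 h and 0.64 at 12 h (adjusted p = 1.21e-19 and 7.58e-09 in the authors' deposited table). PRPF31 fell at 12 h, and TFPT rose by 0.75 (adjusted p = 0.000435 in the authors' deposited table). SNRPA fell at both times, and C19orf54 rose by 0.33 and 0.29 (adjusted p = 0.037 and 0.0156 in the authors' deposited table). In these 3 pairs both genes were called at 12 h, in opposite directions.

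At 12 h both genes fell in 2 further pairs, the member alone was called in 1, the neighbour alone in 4 and neither in 7 in the authors' deposited table. At 4 h both were called in opposite directions in 2 pairs and both fell in 1; the member alone was called in 4, the neighbour alone in 4 and neither in 6 in the authors' deposited table. In 4 of the pairs neither gene was called at either time. COG4, beside SF3B3, fell by 0.18 at 4 h and 0.56 at 12 h (adjusted p = 0.0187 and 4.18e-05 in the authors' deposited table). SPPL2B, beside LSM7, fell by 0.72 and 1.01 (adjusted p = 5.8e-06 and 2.54e-12 in the authors' deposited table). XPC, a DNA repair gene beside LSM3, fell by 0.55 and 0.84 (adjusted p = 1.96e-11 and 2.51e-14 in the authors' deposited table), where LSM3 had -0.053 and 0.054 and was not called. POLR3K, a subunit of RNA polymerase III beside SNRNP25, had 0.0033 and -0.075 and was not called in the authors' deposited table. The annotated 5′ ends of PRPF31, SNRPA, LSM3, LSM7 and SNRNP25 overlap these neighbours, and the strand setting of the counting is not stated, so reads there are uncertain.

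The rest of the splicing machinery was described through lists of genes outside the rule. No list was tested as a set. Of all genes 19.2% were lower and 19.2% higher at 4 h by the authors' deposited table. Among genes with a mean of 1000 or more 30.2% were lower and 19.5% higher. A list count near these shares cannot be read as a response of the list. Of 26 genes of the catalytic steps 14 were lower and 1 higher at 4 h by the authors' deposited table, with a median of -0.14. XAB2, YJU2 and CWC22 were lowest at -0.60, -0.56 and -0.51, and BUD31 was higher at 0.21 in the authors' deposited table. Of 22 SR proteins, which bind exonic enhancers, and their kinases 12 were lower and 4 higher at 4 h by the authors' deposited table, with a median of -0.16. CLK2, SRSF4 and SRSF5 were lowest at -0.73, -0.62 and -0.59, and SRSF8, CLK1 and SRSF7 highest at 0.73, 0.38 and 0.30 in the authors' deposited table.

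Smaller lists at 4 h included 14 U2-linked factors, of which 6 were lower and 0 higher by the authors' deposited table, led by SUGP1 at -0.55, CHERP at -0.46 and PUF60 at -0.35. Of 14 tri-snRNP partners 3 were lower and 0 higher by the authors' deposited table: SART3, which recycles U4/U6, at -0.56, the U5 helicase DDX23 at -0.51 and SART1 at -0.27. Of 20 genes of Sm assembly and import 3 were lower and 1 higher by the authors' deposited table: PHAX, the export adaptor of new snRNAs, at -0.38, GEMIN7 at -0.31, COIL of the Cajal body at -0.30, and GEMIN6 at 0.25. Of 11 genes in the minor spliceosome list TXNL4B was higher at 0.48 and DHX8 lower at -0.18 in the authors' deposited table. DHX8, which is in the catalytic-step list too, is known as the helicase that releases mRNA from the major spliceosome. A place in this list does not show that TXNL4B or DHX8 is specific to the minor spliceosome. Of 20 hnRNP genes 2 were higher, HNRNPH1 at 0.23 and HNRNPA1 at 0.12, and 6 lower, led by HNRNPF at -0.19, PTBP1 at -0.17 and HNRNPUL1 at -0.17 in the authors' deposited table. In the exon junction complex, laid on spliced mRNA, EIF4A3 and SAP18 were higher at 0.52 and 0.17, and PNN and ACIN1 lower at -0.22 and -0.12 in the authors' deposited table.

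For the lists at 12 h, 21.9% of all genes were higher and 22.3% lower by the authors' deposited table. Among genes with a mean of 1000 or more these were 21.3% and 24.5%, and list counts near them show no response of a list. At 12 h 2 of 10 exon junction genes were higher and 4 lower by the authors' deposited table. EIF4A3, the helicase that clamps the RNA, had 1.13 (adjusted p = 9.71e-29 in the authors' deposited table), the highest called value of the lists, and SAP18 had 0.53. PNN, MAGOHB and MAGOH were lower at -0.52, -0.52 and -0.46 in the authors' deposited table; MAGOH and MAGOHB are near-identical copies, so their reads may be split. Of 20 genes of Sm assembly and import 5 were higher and 2 lower at 12 h by the authors' deposited table. DDX20, GEMIN6 and GEMIN4 of the SMN complex, which loads Sm rings, were higher at 0.62, 0.34 and 0.32, and PHAX and GEMIN2 lower at -0.49 and -0.43 in the authors' deposited table.

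Of 26 catalytic-step genes 2 were higher at 12 h, BUD31 at 0.62 and RBM22 at 0.34, and 7 lower, led by CWC27 at -0.45, CDC40 at -0.35 and XAB2 at -0.32 in the authors' deposited table. Of 22 SR genes 3 were higher, SRSF8 at 0.92, CLK1 at 0.68 and SRSF6 at 0.32, and 4 lower, led by SRSF12 at -1.30, CLK2 at -0.37 and SRSF5 at -0.24 in the authors' deposited table. SART3 and DDX23 were again lower at -0.65 and -0.72 and ECD was higher at 0.26 among 14 tri-snRNP partners in the authors' deposited table. Of 15 U2-linked genes 4 were lower and 0 higher, led by DDX42 at -0.49, HTATSF1 at -0.38 and RBM17 at -0.29 in the authors' deposited table. In the minor spliceosome list TXNL4B and SCNM1 were higher at 0.62 and 0.34 and 0 lower by the authors' deposited table. Of 20 hnRNP genes 5 were lower and 0 higher, led by HNRNPA3 at -0.28, HNRNPM at -0.25 and HNRNPR at -0.24 in the authors' deposited table.

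**Figure D4:**
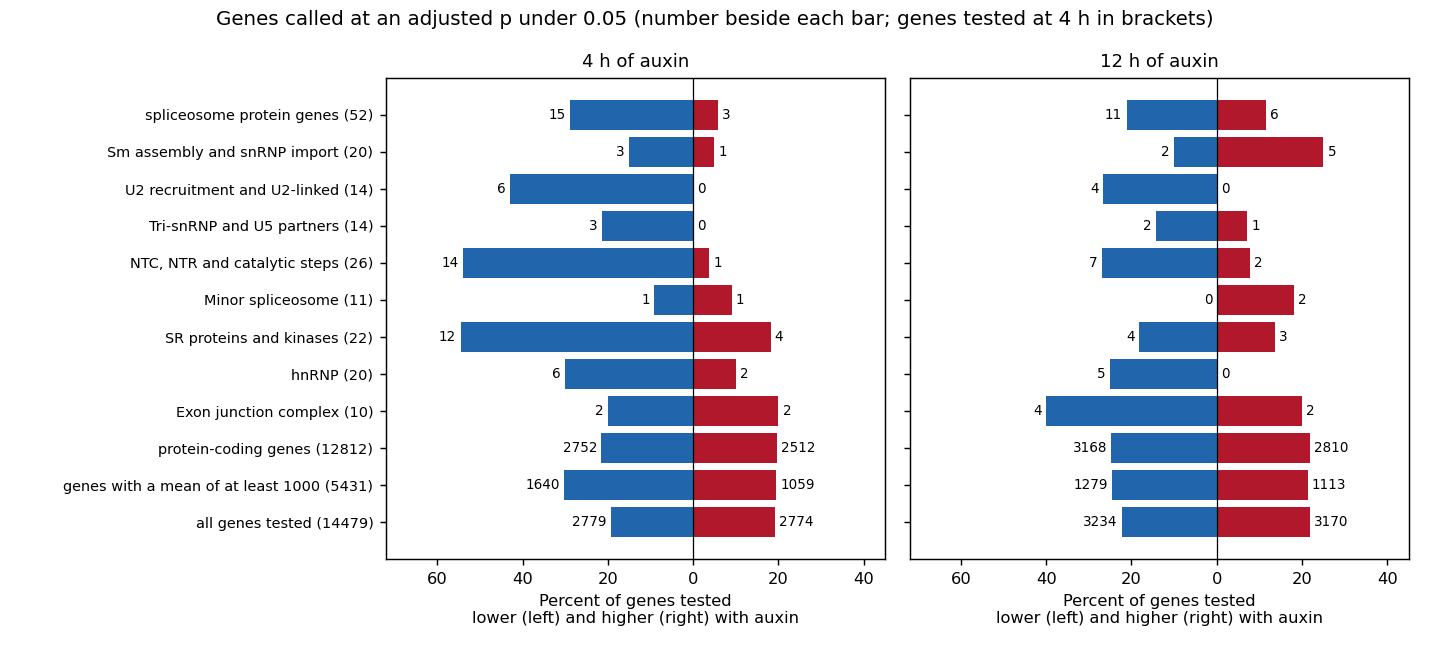
Percent of genes tested that were lower (left) or higher (right) with auxin at 4 h and 12 h in the authors' deposited table, for the 52 spliceosome protein genes, 8 lists of other splicing genes and the backgrounds; numbers beside bars count genes. At 4 h the catalytic-step list (14 of 26 lower) and the SR list (12 of 22) reach farther left than the members (15 of 52). Of all genes tested 19.2% were lower at 4 h.

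In the untreated lines 7 of 136 list genes (5.15%) were called by limma, each higher in INTS1-AID than in parental cells, where 1.85% of all genes were called higher. By limma they were PHAX at 0.54 (adjusted p = 0.0165), GEMIN5 at 0.47 (0.0244), DDX46 at 0.35 (0.0372), ZMAT2 at 0.59 (0.0201), SLU7 at 0.68 (0.0201), CWC27 at 0.67 (0.0172) and RBM22 at 0.64 (0.0268). Where these 7 genes lie on the chromosomes was not examined. A difference of the lines shared along a chromosome was not tested, so these calls cannot be read as special to splicing genes. With auxin at 12 h PHAX and CWC27 were lower, RBM22 was higher at 0.34 (adjusted p = 0.000516), and the remaining 4 were not called in the authors' deposited table. In new RNA with INTS1 loss EIF4A3, SRSF8 and BUD31 were higher at 0.76, 0.67 and 0.63, and YJU2, SRSF12 and XAB2 lower at -0.88, -0.68 and -0.67 in the authors' deposited table. With INTS8 loss SRSF8 was higher at 0.43, and PTBP1, HNRNPL, SRRM2 and HNRNPUL1 lower at -0.38, -0.37, -0.34 and -0.31 in the authors' deposited table.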

How the data were processed

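Depositors' steps are given with their source. STAR 2.7.3a and DESeq2 were used with hg38, and dm6 is also listed, per the submitters' processing notes. Libraries were stranded (dUTP), made with a TruSeq or a NEBNext kit, per the labels. For the untreated lines the deposited signal is a normalized count per gene and library, which equals whole reads divided by a size factor (100% of values whole within 0.001). For the auxin and new RNA comparisons the authors deposited log2 fold changes, the same as a fold, p-values with adjusted p-values, and mean normalized counts and calls (scores), with no value per library; for the lines they also deposited the −log10 adjusted p. A log2 expression column, deposited by the authors, equals the level per kb without auxin at 4 h and gives the levels there. All table columns used were mapped, and 0 were left without a sample or comparison.

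The 4 h direction, auxin over no auxin, was checked against that column (median error 0.00048 on the log2 scale). For INTS1 new RNA it also fitted the level without auxin (0.0013, against 0.179 for the level with auxin). For INTS8 it fitted the group on top of the fold (0.0010, against 0.110 for the group below it), and at 12 h neither closely (0.078 and 0.155). The directions at 12 h and with INTS8 loss are therefore inferences, from their correlation across genes with 4 h (r = 0.85) and with INTS1 new RNA (r = 0.88).

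Untreated lines were compared with limma 3.58.1 (trend, robust) in R 4.3.3 on log2(normalized count + 1), for genes with a mean of at least 10, with Benjamini-Hochberg adjustment at 0.05; fold changes on that scale understate low genes. DESeq2 1.42.0 and edgeR 4.0.16 ran on the recovered reads. The difference between times is a Wald test on the deposited DESeq2 values, with standard errors implied by the p-values, and the method was tested on simulated data. Intervals cover the error of these fits. Same-numbered libraries of the lines deviated with r = -0.075, 0.0040 and -0.11, so no pairing by number was seen. The deviations of the parental libraries followed GC content, so this check cannot exclude a shared culture or day.

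Members, roles and lists were chosen with earlier results of these data known. Of the 52 members 1 is not reported here by itself and is left out of the plots of single genes, but counts in every total. Any other member may be named; in full are the 6 largest called rises and falls per comparison and the ends of each role group, and from each list the 3 largest called rises and falls, in part for new RNA. GENCODE v29 and RefSeq gave gene structure and promoters. SNRPN and LSMEM2 were not analysed here.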

Additional observations from a re-analysis of the deposited data

Results flagged for a closer look

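For 5 members the change with auxin differed between 12 h and 4 h by a direct Wald test of the difference, adjusted over all genes (DESeq2 values from the authors' deposited table). The 12 h minus 4 h difference on the log2 scale was 0.54 for SNRNP25 and 0.44 for SF3B5, more positive at 12 h. It was -0.45 for LSM6, -0.34 for PRPF31 and -0.31 for SNRPA, more negative at 12 h. The times have separate libraries, and the kit of each library is not given, so time and library preparation cannot be told apart.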

How the results depend on the processing

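In the untreated lines limma called 0 of 52 members. DESeq2 on recovered reads, the removal of each library's GC trend and the authors' deposited table each called 2. Leaving out 1 library in turn gave 0 to 8, the 8 without parental library 3, where PRPF6 turned from -0.061 to 0.11; over the libraries left out it ran from -0.15 to 0.11. Removing the GC trend and that library together, an alternative chosen after seeing the data, called 11, with PRPF6 at 0.11. Over the whole table limma called 295 genes, against 824 by DESeq2, 1311 with the GC trend removed, 2804 with that trend and parental library 3 both removed, 806 in the authors' deposited table, 11 at an adjusted p under 0.01, 6 with the replicate block and 1 to 2432 with 1 library left out. The fit with the replicate block called 0 of 52, and whether the numbers pair the libraries is not known.

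For the auxin series no paired analysis was possible because the authors' deposited table holds comparisons and no value per library; leaving out libraries could not be run either. At a log2 size of at least 0.5 the calls were 0 at 4 h, 6 at 12 h, 0 in new RNA with INTS1 loss and 0 with INTS8 loss. At an adjusted p under 0.01 they were 12 of 18 at 4 h, 11 of 17 at 12 h and 3 in new RNA with INTS1 loss, and 2 for the difference between times (SF3B5 and SNRNP25). With a mean count of at least 100 they were 19 at 4 h, with LSM6 added, and 18 at 12 h, with PRPF3 and PRPF4 added and LSMEM1 below the minimum. The shares of all genes at these settings are not given here. Whether members lost more or fewer calls than other genes therefore cannot be read from these counts. The causes of these changes beyond the stricter thresholds were not tested.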
